A study of Mus musculus with 18 samples.

Results

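Nos2 encodes inducible nitric oxide synthase, and 6 further genes bring arginine to it, remake arginine, supply its cofactor or start polyamine synthesis. These 7 genes (Nos2, Slc7a2, Slc7a1, Ass1, Asl, Gch1 and Odc1) were chosen by symbol and role, with earlier results of these data known. All 7 had a value among the 13598 genes for which one could be computed, and all 7 passed the filter of at least 1 FPKM in at least 3 of 18 libraries, which left 9707 genes for testing. Nos2 passed that filter through its LPS-treated libraries. FPKM is fragments scaled to transcript length and library size, so levels of different genes can be compared per length.

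RNA-seq was done on mouse peritoneal macrophages with 3 genotypes at Tlr4 (TLR4-WT, TLR4-K730R or TLR4-K810R), either mock-treated or given 100 ng/ml LPS, the bacterial lipopolysaccharide that activates TLR4, for 6 h. Each of the 6 groups had 3 libraries. The mutant mice carry a germline lysine to arginine exchange at the named position of the TIR domain, the cytoplasmic signalling part of TLR4, made by CRISPR/Cas9, so every cell type of the animal carries it. According to the study's methods the cells of all genotypes were lavaged after thioglycolate injection, so the mock group is an elicited macrophage population and not a resting one. The labels give neither age nor sex and do not tie a library to an animal, so p-values measure the spread between these libraries, which may be technical.

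Inducible nitric oxide synthase oxidises arginine to nitric oxide and citrulline and needs tetrahydrobiopterin, whose synthesis starts with the GTP cyclohydrolase encoded by Gch1. Cationic amino acid transporters encoded by Slc7a1 and Slc7a2 carry arginine into the cell, and argininosuccinate synthase (Ass1) and lyase (Asl) turn citrulline back into arginine. Ornithine decarboxylase (Odc1) takes ornithine into polyamines. In macrophages Nos2 is commonly read as a sign of classical activation.

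The 7 genes lie on 6 chromosomes of GRCm38. Nos2 spans chr11:78920787-78960254 on the plus strand, Slc7a2 chr8:40862396-40922308 on the plus strand, Slc7a1 chr5:148327410-148399904 on the minus strand and Asl chr5:130011258-130029247 on the minus strand. Odc1 spans chr12:17544794-17551505 on the plus strand, Ass1 chr2:31470207-31520672 on the plus strand and Gch1 chr14:47153895-47189413 on the minus strand. Each gene value was taken from whichever end of the gene, its first exons or its last exons, had the higher FPKM sum in that library. These sums differed by less than 1.1 times in 18 of 18 libraries for Ass1 and Slc7a1, in 16 for Slc7a2 and in 9 for Nos2. The values of Gch1 rest on its last exon and those of Odc1 on its first exon, because the first exon of Gch1 was listed in 6 of 18 libraries and the last exon of Odc1 had group means of at most 0.0970 FPKM. For Asl the sums differed by less in 2 libraries, and the last exon gave the larger sum in 17 of 18.

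The upstream sequence of 4 of the 7 genes could be shown, Ass1 and Gch1, which rose after LPS in all genotypes, and Odc1 and Slc7a1, which did not pass the test in any. Each line gives the 150 bases before the start of the first exon in the files, 5′ to 3′ on the gene's strand, cut from RefSeq promoter sequence of build GRCm38.p6 (chr2:31470057-31470206 for Ass1, chr14:47189414-47189563 for Gch1, chr12:17544644-17544793 for Odc1 and chr5:148399905-148400054 for Slc7a1). Capitals mark GGG, any 5 bases and CC, the letters of an NF-κB type site, on either strand, overlapping matches merged, and in Slc7a1 also TGANTCA, the letters of an AP-1 type site, from -123 to -117.
Ass1: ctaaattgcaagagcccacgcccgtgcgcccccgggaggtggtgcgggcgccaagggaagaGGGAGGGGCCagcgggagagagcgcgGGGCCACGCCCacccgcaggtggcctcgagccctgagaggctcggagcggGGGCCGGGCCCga
Gch1: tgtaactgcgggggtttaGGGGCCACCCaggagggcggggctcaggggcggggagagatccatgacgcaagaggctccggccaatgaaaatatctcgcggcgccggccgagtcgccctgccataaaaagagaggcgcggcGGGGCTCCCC
Odc1: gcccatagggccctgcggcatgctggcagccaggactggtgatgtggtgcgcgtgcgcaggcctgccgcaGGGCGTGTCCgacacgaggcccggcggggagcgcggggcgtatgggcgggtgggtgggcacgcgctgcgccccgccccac
Slc7a1: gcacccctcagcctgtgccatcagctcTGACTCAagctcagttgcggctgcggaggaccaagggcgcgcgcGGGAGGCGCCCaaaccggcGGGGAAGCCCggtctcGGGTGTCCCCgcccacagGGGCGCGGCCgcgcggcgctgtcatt
The NF-κB type letters had 5 matches in Ass1, 2 in Gch1, 1 in Odc1 and 5 in Slc7a1, counting overlapping matches, and are present in 35.4% of 32851 promoter windows of the same length. TGANTCA is in 4.24% of those windows. The windows of the 4 genes held no match to GAAA, any 2 bases and GAAA (interferon response element, 1.59% of all windows), TTCNNNGAA (STAT type, 4.09%), TTGCNNAA (C/EBP type, 5.46%), CACGTG (E-box, 4.30%) or TATAAA (7.57%). They were rich in G and C, at 76.0%, 67.3%, 77.3% and 73.3% in the order above, against 54.8% over all windows. The matches are descriptions of letters and were present alike in genes that rose and in genes that were not called.

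The macrophage label held. The summed level of 8 macrophage markers lay between 11633 and 14785 FPKM in mock libraries and between 7289 and 10057 FPKM with LPS, although Itgam was listed at 0 throughout and Cd14 at 0 in 5 of 6 groups. T cell and B cell marker sums reached at most 0.548 and 3.66 FPKM, whereas the neutrophil marker sum was 23.9–46.8 FPKM in mock libraries and 172–245 FPKM with LPS. Of the 7 neutrophil markers Elane was at 0 in all groups, and in LPS-treated TLR4-WT so were Ly6g, Ltf and Mpo. In mock libraries Tlr4 itself was at 11.7 ± 2.41, 10.4 ± 1.46 and 12.5 ± 1.23 FPKM (SD, n = 3; TLR4-WT first, TLR4-K810R last) and at 5.17 ± 0.497, 4.68 ± 0.373 and 4.73 ± 0.547 FPKM with LPS, and these levels cannot show a single amino acid exchange. Across the 9707 genes replicates correlated at r = 0.961–0.975, but replicate 3 of LPS-treated TLR4-K730R was most like replicate 2 of LPS-treated TLR4-WT (r = 0.974, against 0.963–0.966 with its own group), and replicate 3 of LPS-treated TLR4-WT was most like replicate 2 of LPS-treated TLR4-K730R (r = 0.970054, against 0.962–0.966), although its r with the LPS-treated TLR4-K810R libraries was about as high, at 0.964–0.969707. Labels were kept, and the differences of Nos2 between LPS-treated genotypes and between LPS responses are given with and without these libraries. Depth is unknown, since FPKM values without counts were analysed.

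LPS treatment was followed by called rises of Nos2, Slc7a2, Ass1 and Gch1 and by a called fall of Asl in TLR4-WT, TLR4-K730R and TLR4-K810R cells, where called means an adjusted p below 0.01 in limma on log2(FPKM + 1). So 4 of 7 genes were called higher in each genotype, against 10.4% of all tested genes in TLR4-WT, 9.32% in TLR4-K730R cells and 9.08% in TLR4-K810R, and 1 of 7 was called lower, against 23.9%, 26.5% and 19.7%. The median log2 difference of the 7 genes was 2.16, 2.80 and 2.82, and that of all genes -0.28, -0.36 and -0.26. These all-gene medians shift with scaling: after median-of-ratios scaling they were -0.04, -0.08 and -0.07, and the split of called genes in TLR4-WT moved from 1012 higher and 2316 lower to 1426 higher and 1442 lower, in TLR4-K730R from 905 and 2568 to 1376 and 1459, and in TLR4-K810R from 881 and 1916 to 1129 and 1228. All LPS libraries were above all mock libraries for 5, 5 and 4 of the 7 genes, against 15.5%, 13.8% and 14.6% of all genes, and all below for 1 of 7 in each genotype, against 39.5%, 45% and 37.9%. In bulk RNA, fewer cells of a type and less RNA per cell cannot be told apart.

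**Figure D1:**
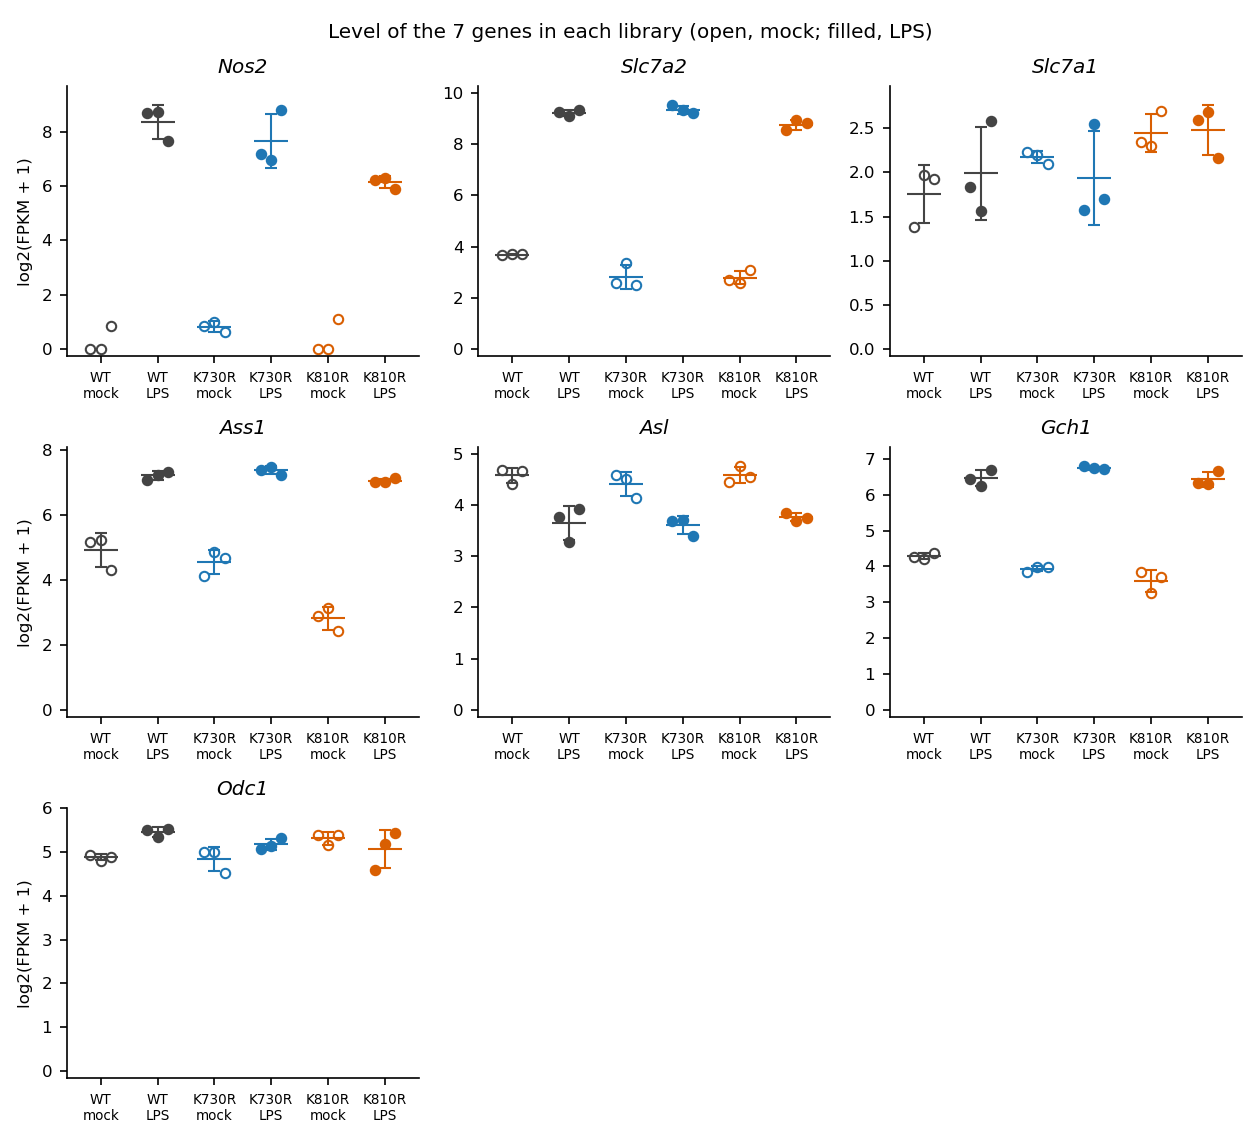
Level of the 7 genes as log2(FPKM + 1) in each library, with 1 panel per gene and its own scale. Open circles are mock and filled circles LPS libraries in order of replicate number, and bars are the mean ± SD of 3 libraries, left out where a library is listed at 0. Nos2 and Slc7a2 separate mock from LPS libraries in every genotype, the LPS-treated TLR4-K810R libraries are the lowest LPS group for Nos2, and mock-treated TLR4-K810R is the lowest group for Ass1.

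Nos2 was at or below 1.15 FPKM without LPS. In mock-treated TLR4-WT cells it was listed at 0, 0 and 0.807 FPKM, in TLR4-K730R at 0.814, 0.989 and 0.524 FPKM and in TLR4-K810R at 0, 0 and 1.15 FPKM. With LPS it stood at 406, 423 and 199 FPKM in TLR4-WT, at 144, 123.45 and 441 FPKM in TLR4-K730R and at 74.0, 78.0 and 58.7 FPKM in TLR4-K810R. Every LPS library was far above every mock library, the 3 TLR4-K810R libraries were below all other LPS libraries, and the TLR4-K730R group held both the highest value of all and a pair below the TLR4-WT range. The log2 difference between LPS and mock was 8.06 (SE 0.433, limma adjusted p = 6.00e-10) in TLR4-WT, 6.82 (SE 0.433, adjusted p = 3.30e-09) in TLR4-K730R and 5.78 (SE 0.433, adjusted p = 2.63e-08) in TLR4-K810R. Because 4 mock libraries are listed at 0, these sizes depend on the pseudocount, and with 0.1 in place of 1 they were 10.60, 7.86 and 8.23. Nearly all Nos2 signal came from the first exon at 78920787, with 341 FPKM on average in LPS-treated TLR4-WT, 234 FPKM in TLR4-K730R cells and 69.4 FPKM in TLR4-K810R, while first exons at 78924740 and 78925176 stayed at or below 1.60 FPKM.

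Transcripts of the arginine transporter genes behaved differently after LPS. Slc7a2, which encodes the transporter CAT2, was at 11.8, 11.9 and 11.9 FPKM in mock-treated TLR4-WT, at 5.0, 9.31 and 4.65 FPKM in TLR4-K730R and at 5.42, 5.04 and 7.6 FPKM in TLR4-K810R. LPS took it to 613, 543 and 646 FPKM, to 731, 646 and 589 FPKM and to 375, 489 and 451 FPKM in the same order. In mock libraries the TLR4-WT values lay above all mutant values, and with LPS the TLR4-K810R values lay below all others. The log2 rise was 5.54 (SE 0.195, limma adjusted p = 7.39e-12) in TLR4-WT, 6.54 (adjusted p = 1.31e-12) in TLR4-K730R and 5.98 (adjusted p = 3.37e-12) in TLR4-K810R. A first exon at 40874948, downstream of the main start at 40862396, was listed in 4 libraries and averaged 12.8 FPKM in LPS-treated TLR4-WT and 33.2 FPKM in LPS-treated TLR4-K730R, and it was listed at 0 in the other groups. A shorter exon form from 40902604 to 40902664 averaged 49.3 and 73.1 FPKM in those 2 groups and was listed at 0 in the others, with no test of either form. Slc7a1, which encodes the widely expressed transporter CAT1, stayed between 1.60 and 5.45 FPKM in all 18 libraries. Its log2 difference after LPS was 0.23 (95% interval -0.36 to 0.83), -0.23 (-0.83 to 0.36) and 0.03 (-0.56 to 0.63) in TLR4-WT, TLR4-K730R and TLR4-K810R, with limma adjusted p of 0.518, 0.509 and 0.940.

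The cofactor gene Gch1 also rose after LPS. It was at 18.3, 17.5 and 19.9 FPKM in mock-treated TLR4-WT and at 84.8, 74.7 and 102 FPKM with LPS. TLR4-K730R went from 13.4, 14.7 and 14.8 FPKM to 109, 106 and 103 FPKM, and TLR4-K810R from 13.3, 8.55 and 12.2 FPKM to 79.4, 77.3 and 99.4 FPKM. Unlike for Nos2, the LPS-treated TLR4-K810R libraries lay within the TLR4-WT range. The log2 rise was 2.16 (SE 0.149, limma adjusted p = 9.25e-09), 2.80 (adjusted p = 4.18e-10) and 2.82 (adjusted p = 4.33e-10) in TLR4-WT, TLR4-K730R and TLR4-K810R. With first-exon sums alone it was not called in any genotype (limma adjusted p = 0.0951, 0.186 and 0.402).

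The citrulline-recycling pair moved in opposite directions. Ass1, the rate-limiting step of arginine regeneration, was at 35.5, 37.1 and 19.0 FPKM in mock-treated TLR4-WT, at 16.7, 28.1 and 24.9 FPKM in TLR4-K730R and at 6.5, 7.78 and 4.39 FPKM in TLR4-K810R. With LPS it reached 134, 152 and 162 FPKM, 168, 179.7 and 152 FPKM, and 130.0, 129 and 141 FPKM. The mock-treated TLR4-K810R libraries were all below every other mock library, and the 3 LPS groups lay close together, so the rise was 2.31 (SE 0.235, limma adjusted p = 7.85e-07) on the log2 scale in TLR4-WT, 2.82 (adjusted p = 7.92e-08) in TLR4-K730R and 4.24 (adjusted p = 7.55e-10) in TLR4-K810R. Asl, the next enzyme, ranged from 16.7 to 25.9 FPKM in the 9 mock libraries and from 8.69 to 14.1 FPKM in the 9 LPS libraries, with no overlap. Its log2 difference was -0.93 (SE 0.165, limma adjusted p = 2.53e-04), -0.81 (adjusted p = 7.89e-04) and -0.82 (adjusted p = 8.68e-04). The fall of Asl was not called in any genotype with first-exon sums alone (-0.46, -0.24 and -0.75) or without replicate 1 of all groups (-0.93, -0.77 and -0.93), nor in TLR4-K730R after median-of-ratios scaling (-0.48) or in TLR4-K810R without replicate 2 of all groups (-0.70).

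Odc1, the entry to polyamines, was not called in any genotype. It went from 29.7, 26.9 and 28.8 FPKM to 44.3, 39.5 and 45.2 FPKM in TLR4-WT, from 31.2, 31.0 and 21.8 FPKM to 32.8, 34.4 and 38.9 FPKM in TLR4-K730R, and from 40.6, 34.5 and 41.2 FPKM to 23.1, 35.4 and 41.9 FPKM in TLR4-K810R. The LPS libraries were above the mock libraries in TLR4-WT and TLR4-K730R and overlapped them in TLR4-K810R. The log2 difference was 0.58 (limma adjusted p = 0.0153), 0.34 (adjusted p = 0.128) and -0.24 (adjusted p = 0.299). With median-of-ratios scaling the TLR4-WT and TLR4-K730R differences were 0.86 and 0.68 and were called, and the TLR4-WT difference was also called when only the 2 groups were fitted (adjusted p = 0.00632).

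**Figure D2:**
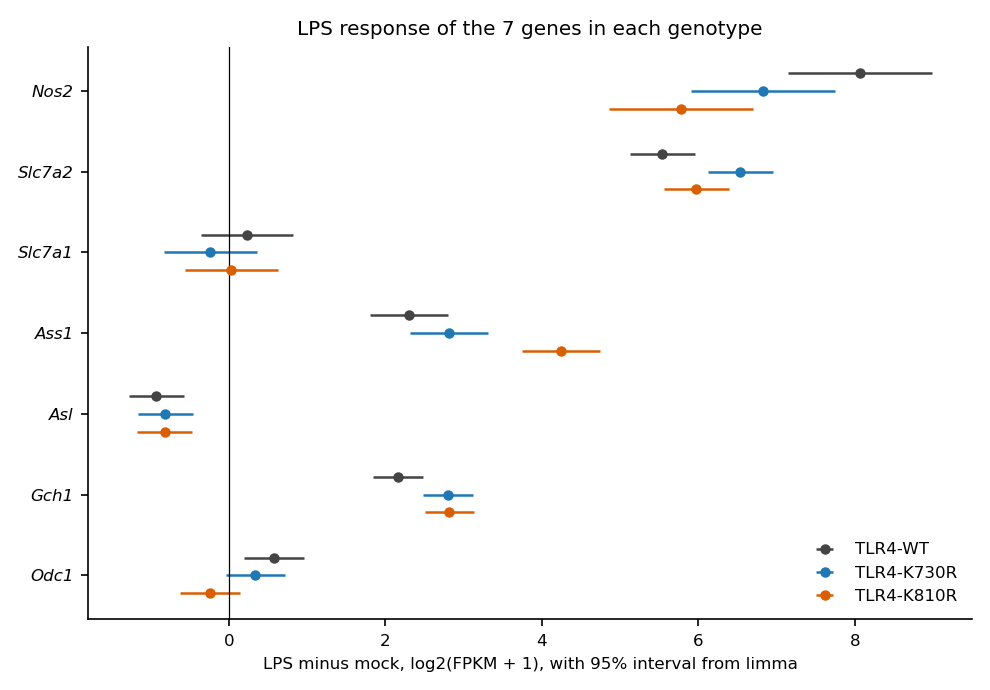
LPS minus mock difference of the 7 genes on the log2(FPKM + 1) scale (x axis) in TLR4-WT, TLR4-K730R and TLR4-K810R, with points for the estimate and lines for the 95% interval from limma. Nos2 has estimates of 8.06, 6.82 and 5.78, Ass1 of 2.31, 2.82 and 4.24, Asl lies below 0 and the intervals of Slc7a1 include 0 in every genotype.

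In LPS-treated TLR4-WT cells the order of levels was Slc7a2 (601 ± 53.1 FPKM, SD, n = 3), Nos2 (343 ± 125), Ass1 (149 ± 13.9), Gch1 (87.2 ± 13.8), Odc1 (43.0 ± 3.08), Asl (11.8 ± 2.77) and Slc7a1 (3.16 ± 1.60). The libraries of neighbours in this order did not overlap.

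The second question of the design is whether the mutants differ from TLR4-WT. Each mutant was compared with the same TLR4-WT libraries, so these comparisons are not independent. In mock-treated cells TLR4-K810R had less Ass1 than TLR4-WT, with 6.22 ± 1.71 against 30.5 ± 10.1 FPKM (SD, n = 3), a log2 difference of -2.10 (SE 0.235, limma adjusted p = 9.51e-05). Ass1 was the only member called there, 1 of 7 called lower and 0 of 7 higher, against 0.649% and 0.927% of all tested genes. In that comparison 2 of 7 genes were higher and 3 lower in all libraries, against 14.2% and 6.64% of all genes. At an unadjusted p below 0.05 the count was 5 of 7, against 14.1% of all genes. Ass1 was called lower against mock-treated TLR4-K730R too (log2 difference -1.74, adjusted p = 0.00312), again 1 of 7, against 0.0824% of all genes called in either direction, and 2 of 7 genes were higher and 2 lower in all libraries, against 12.6% and 6.04%, with 3 of 7 at an unadjusted p below 0.05, against 10.4%. The call against TLR4-WT was lost when only these 2 groups were fitted (adjusted p = 0.0518) and when replicate 1 or replicate 2 was left out of all groups, and the call against TLR4-K730R was lost in the same 2-group fit and when any of 4 single libraries was left out, replicates 2 and 3 of mock-treated TLR4-K730R and replicates 1 and 3 of mock-treated TLR4-K810R, or any 1 replicate number was left out of all groups. The estimates stayed between -2.40 and -1.90 and between -1.995 and -1.48 under every alternative run.

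Marker sums of other cells also differed among the mock groups, with overlapping intestinal ranges in the mutants. The summed level of 8 mesothelial and fibroblast markers was 118–284 FPKM in mock-treated TLR4-K810R, 59.7–69.4 FPKM in TLR4-K730R cells and 32.0–49.1 FPKM in TLR4-WT. That of 11 intestinal epithelial markers was 54.6–118 FPKM, 44.1–71.4 FPKM and 0.118–0.670 FPKM, with 9 of the 11 at 0 in every TLR4-WT mock library. Cdx2 and Phgr1 were at 0 in all groups. In mock-treated TLR4-K810R Reg3b was the largest part, at 32.4, 29.5 and 45.7 FPKM, whereas Vil1 was at 0.0666, 0.583 and 1.12 FPKM. The part of these cells in the Ass1 difference was not tested.

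Slc7a2 and Gch1 also stood apart in mock libraries without passing the threshold. Slc7a2 and Gch1 were lower in all TLR4-K810R than in all TLR4-WT libraries, by a log2 difference of -0.89 (limma adjusted p = 0.0159) and -0.69 (adjusted p = 0.0156). In TLR4-K730R the same genes stood at -0.87 (adjusted p = 0.0633) and -0.35 (adjusted p = 0.579), with 0 of 7 called, against 0.268% of all genes, and 2 of 7 at an unadjusted p below 0.05, against 7.70%. All TLR4-K730R libraries were higher for 1 and lower for 2 of the 7 genes, against 8.91% and 7.45% of all genes. With median-of-ratios scaling or library weights 3 of the 7 genes were called in TLR4-K810R against TLR4-WT. Over all genes this mock comparison had 153 calls in the main fit. Under the alternatives, which include that scaling and those weights, it had at most 218. Odc1 was at 38.8 ± 3.71 FPKM in mock-treated TLR4-K810R and 28.5 ± 1.41 FPKM in TLR4-WT (log2 difference 0.43, adjusted p = 0.280), with no overlap. Slc7a1 was at 4.48 ± 0.842 and 2.44 ± 0.731 FPKM in the same groups (log2 difference 0.69, adjusted p = 0.257), also with no overlap. The interval of the difference was widest for Nos2, at -0.84 to 1.004 in TLR4-K810R and -0.39 to 1.46 in TLR4-K730R.

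**Figure D3:**
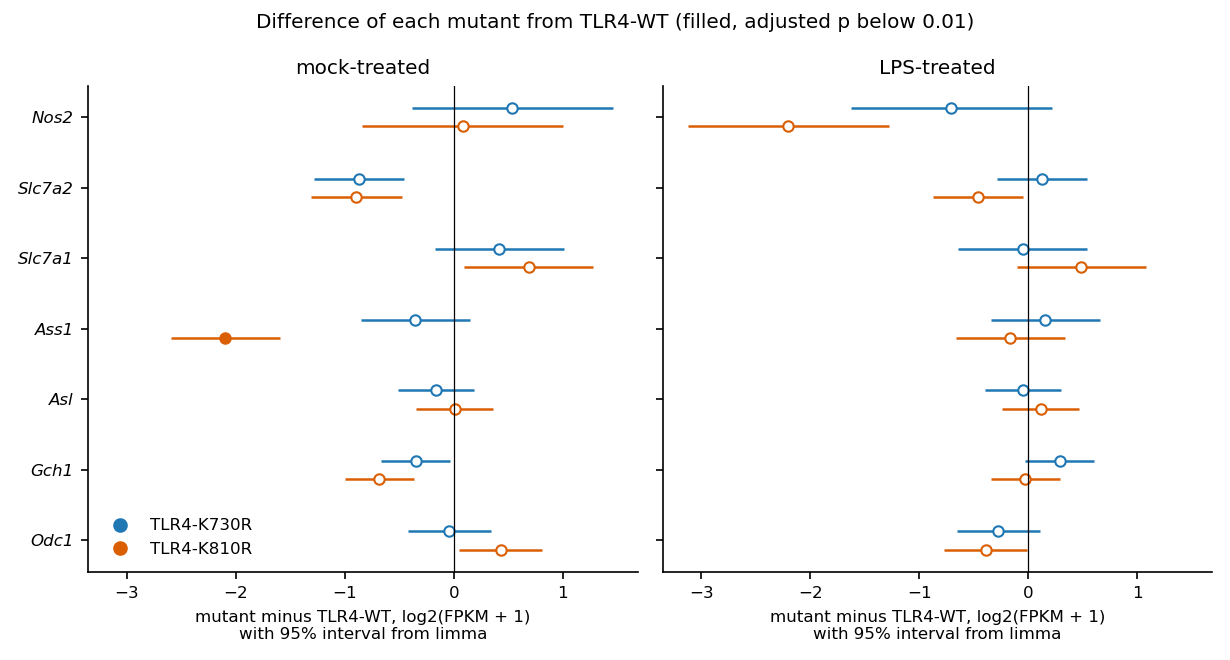
Difference of TLR4-K730R and TLR4-K810R from TLR4-WT for the 7 genes on the log2(FPKM + 1) scale, mock-treated cells on the left and LPS-treated cells on the right. Lines are 95% intervals from limma and filled points have an adjusted p below 0.01, which holds for Ass1 in mock-treated TLR4-K810R (-2.10) alone. Nos2 in LPS-treated TLR4-K810R lies at -2.20 with an open point.

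With LPS no member passed the threshold between genotypes, but Nos2 stood lowest in TLR4-K810R. Nos2 averaged 70.2 ± 10.2 FPKM (SD, n = 3) there, 343 ± 125 FPKM in TLR4-WT and 236 ± 178 FPKM in TLR4-K730R. The log2 difference of TLR4-K810R from TLR4-WT was -2.20 (95% interval -3.12 to -1.28, limma adjusted p = 0.0237) and that from TLR4-K730R -1.50 (-2.42 to -0.58, adjusted p = 0.0832). TLR4-K730R differed from TLR4-WT by -0.71 (-1.63 to 0.22, adjusted p = 0.723), and the libraries of these groups overlapped. In each comparison 0 of 7 were called, against 0.134%, 0.0618% and 0% of all genes, and at an unadjusted p below 0.05 the counts were 3, 3 and 0 of 7, against 21.8%, 18.8% and 7.69% of all genes. All TLR4-K810R libraries were below all TLR4-WT libraries for 2 genes (7.89% of all genes) and above for 0 (17.4%), and below all TLR4-K730R libraries for 4 (4.44%) and above for 0 (21.3%). All TLR4-K730R libraries were below all TLR4-WT libraries for 1 gene (7.54%) and above for 1 (3.32%).

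Replicate 3 of LPS-treated TLR4-K730R, at 441 FPKM of Nos2, was the library by which that group overlapped TLR4-WT, and replicate 3 of LPS-treated TLR4-WT was the lowest of its group at 199 FPKM. Without both, an alternative chosen after the values were seen, Nos2 differed from TLR4-WT by -2.55 in TLR4-K810R (limma adjusted p = 3.00e-04, called) and by -1.63 in TLR4-K730R (adjusted p = 0.0176, not called), and TLR4-K810R differed from TLR4-K730R by -0.92 (adjusted p = 0.169). That last difference was also -0.92 without replicate 3 of LPS-treated TLR4-K730R alone (adjusted p = 0.272) and -0.80 without replicate 3 of all groups (adjusted p = 0.0227). Leaving out replicate 3 of LPS-treated TLR4-WT alone gave -2.55 in TLR4-K810R (adjusted p = 0.00597), and library weights gave -2.40 (adjusted p = 0.00186). Over all alternatives the adjusted p for TLR4-K810R ranged from 6.76e-05 to 0.476 and the estimate from -2.55 to -2.01. Without replicate 3 of all groups TLR4-K730R was called too, at -1.63 (adjusted p = 7.20e-04), whereas it stood at -0.31 and -0.17 without replicate 1 or 2 of all groups (adjusted p = 1.0 for both) and at -0.36 without replicate 2 of LPS-treated TLR4-K730R.

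A summed level of resident peritoneal macrophage markers varied alongside Nos2 among the LPS libraries, but not every marker did. The summed FPKM of the 6 markers Gata6, Timd4, Cxcl13, Garnl3, Prg4 and Icam2 was 47.8, 48.7 and 22.8 in TLR4-WT, 18.02, 18.3 and 34.2 in TLR4-K730R cells and 17.4, 10.9 and 14.6 in TLR4-K810R. Replicate 3 was thus the lowest for TLR4-WT and the highest for TLR4-K730R for this sum as for Nos2. Timd4, a phosphatidylserine receptor of resident macrophages, was at 6.17, 5.74 and 3.02 FPKM, 2.44, 2.35 and 7.04 FPKM, and 1.2, 0.865 and 1.36 FPKM in the same libraries. Prg4 and Cxcl13, which made up most of the sum, had the same placing of replicate 3. The other 3 markers did not. Icam2 was at 2.02, 1.34 and 1.87 FPKM in TLR4-WT, and Garnl3 reached at most 0.867 FPKM in an LPS library. Gata6, the transcription factor that defines these cells, did not follow this order, with 0, 0.641 and 0.695 FPKM, 0.230, 0.929 and 0.591 FPKM, and 1.71, 1.29 and 1.78 FPKM. The mast cell sum of 6 markers was 4.61, 4.58 and 1.47 FPKM, 0.517, 0.504 and 2.51 FPKM, and 2.09, 1.03 and 0.672 FPKM, with Fcer1a at 0 in all groups. In mock libraries, where Nos2 was at or below 1.15 FPKM, the resident sum was 21.5–25.1 FPKM in TLR4-WT, 10.3–13.5 FPKM in TLR4-K730R cells and 10.97–26.5 FPKM in TLR4-K810R. Sums for other cells also differed among LPS libraries. The mesothelial and fibroblast sum was 43.7–145 FPKM in TLR4-WT, 47.8–48.4 FPKM in TLR4-K730R cells and 103–124 FPKM in TLR4-K810R. The intestinal sum was 51.7–59.3 FPKM in TLR4-K730R and at most 20.4 FPKM in any other LPS library. The sum of 5 lung epithelial markers was 25.0 and 34.7 FPKM in replicates 2 and 3 of TLR4-K810R, whereas no other LPS library was above 1.47 FPKM. The part of these cells in the Nos2 levels was not tested.

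**Figure D4:**
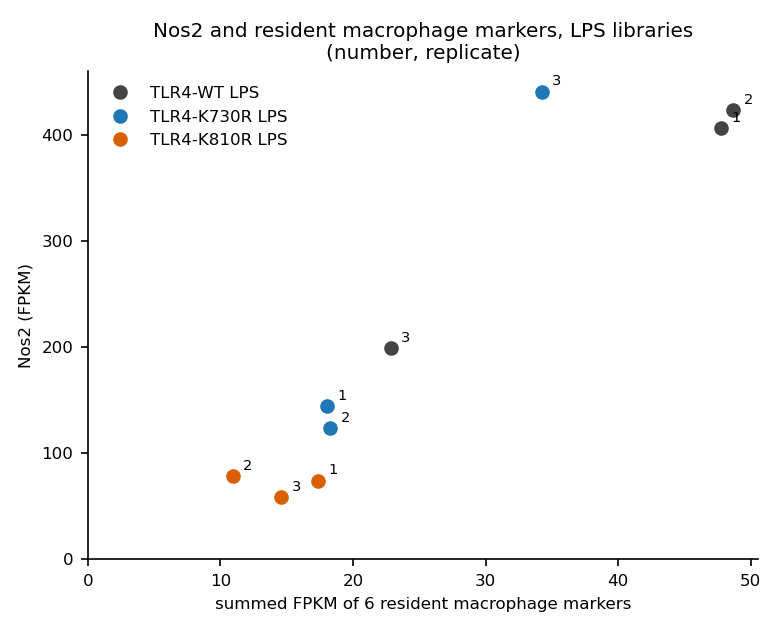
Nos2 in FPKM (y axis) against the summed FPKM of 6 resident peritoneal macrophage markers (x axis) in the 9 LPS libraries, coloured by genotype and numbered by replicate. TLR4-WT replicates 1 and 2 and TLR4-K730R replicate 3 lie at upper right with 406, 423 and 441 FPKM of Nos2, and the TLR4-K810R libraries lie at lower left.

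Slc7a2 was also lowest in LPS-treated TLR4-K810R. It averaged 438 ± 58.4 FPKM (SD, n = 3) there, 601 ± 53.1 FPKM in TLR4-WT and 656 ± 71.4 FPKM in TLR4-K730R, a log2 difference of -0.46 (limma adjusted p = 0.191) and -0.58 (adjusted p = 0.128). Ass1, Asl and Gch1 were within overlapping ranges in LPS-treated TLR4-K810R and TLR4-WT, with intervals of -0.66 to 0.34, -0.24 to 0.47 and -0.34 to 0.29.

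The third question, whether the size of the LPS response differed, was tested as a difference of differences. No member was called, against 0.0412% of all genes when TLR4-K730R was set against TLR4-WT, 0.124% when TLR4-K810R was, and 0.0103% between the mutants, and at an unadjusted p below 0.05 the counts were 2, 4 and 2 of 7, against 7.02%, 13.2% and 8.63% of all genes. In TLR4-K810R the response of Ass1 differed from that in TLR4-WT by 1.93 (SE 0.332, limma adjusted p = 0.0163) and that of Nos2 differed by -2.29 (SE 0.613, adjusted p = 0.119) on the log2 scale, in the direction of a smaller response. For Ass1 the mock levels of these groups were apart and the LPS levels overlapped. The response of Ass1 was called without replicate 3 of mock-treated TLR4-WT and with library weights, and that of Nos2 without both replicates 3 (-2.64, adjusted p = 0.00451) or without replicate 3 of all groups (-2.43, adjusted p = 4.50e-04). In TLR4-K730R the responses of Slc7a2 and Nos2 differed by 0.996 (adjusted p = 0.432) and -1.24 (adjusted p = 0.725). The Nos2 value was -2.17 without both replicates 3 (adjusted p = 0.0442), -1.81 without replicate 3 of LPS-treated TLR4-K730R alone (adjusted p = 0.305), -2.56 and called without replicate 3 of all groups (adjusted p = 8.84e-04), -0.69 and -0.48 without replicate 1 or 2 of all groups, and -2.74 with a pseudocount of 0.1 (adjusted p = 0.680). Between the mutants the Nos2 response differed by -1.04 (TLR4-K810R minus TLR4-K730R, adjusted p = 0.673), and by -0.47 without both replicates 3 (adjusted p = 0.837). Its direction turned with a pseudocount of 0.1 (0.37) and without replicate 3 of all groups (0.12).

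Of 57 further genes of tetrahydrobiopterin, nitric oxide, ornithine, polyamine and cationic amino acid handling, 36 were tested, and 1 was called higher and 14 lower in TLR4-WT, 2 and 15 in TLR4-K730R cells and 3 and 15 in TLR4-K810R. Over all genes 10.4%, 9.32% and 9.08% were called higher and 23.9%, 26.5% and 19.7% lower. Their median log2 difference was -0.56, -0.59 and -0.46, against the all-gene medians given above. With median-of-ratios scaling the counts were 2 and 11, 5 and 12, and 4 and 12, beside the all-gene calls under that scaling given above.

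Of 4 tested genes for the steps of tetrahydrobiopterin supply after Gch1, 0 were called higher and 3, 3 and 2 lower in TLR4-WT, TLR4-K730R and TLR4-K810R, against 23.9%, 26.5% and 19.7% of all genes. Qdpr, which recycles the oxidised cofactor, went from 43.3 ± 9.26 to 14.8 ± 4.24 FPKM (SD, n = 3) in TLR4-WT, from 45.8 ± 8.13 to 16.1 ± 4.70 FPKM in TLR4-K730R and from 50.4 ± 4.44 to 19.5 ± 0.978 FPKM in TLR4-K810R, a log2 difference of -1.51 (limma adjusted p = 4.25e-05), -1.48 (adjusted p = 5.10e-05) and -1.32 (adjusted p = 1.83e-04). Spr, the reductase that completes synthesis, fell in TLR4-WT from 23.8 ± 2.65 to 12.1 ± 4.51 FPKM (log2 difference -0.97, adjusted p = 6.20e-04), and Pcbd2, a recycling dehydratase, from 9.66 ± 0.901 to 4.37 ± 0.454 FPKM (-0.99, adjusted p = 1.87e-04). After median-of-ratios scaling Qdpr was still called in all 3 genotypes, Pcbd2 in TLR4-WT and TLR4-K730R and Spr in TLR4-WT.

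Of 12 tested polyamine genes 7 fell in each genotype and 1 rose in TLR4-K810R. Over all genes 23.9%, 26.5% and 19.7% were called lower, and 9.08% were called higher in TLR4-K810R. With median-of-ratios scaling 6, 5 and 6 were called lower, beside 1442, 1459 and 1228 of all genes. Those called higher under it were Dhps and Smox in TLR4-K730R and Dhps in TLR4-K810R, beside 1376 and 1129 of all genes. The transporters Atp13a2 and Atp13a3, which export polyamines from endosomes and lysosomes, fell by a log2 difference of -1.78 (limma adjusted p = 4.38e-09) and -1.85 (adjusted p = 2.11e-06) in TLR4-WT, from 113 ± 7.81 to 32.3 ± 3.70 FPKM and from 9.51 ± 1.90 to 1.89 ± 0.163 FPKM (SD, n = 3). Paox, a polyamine oxidase, fell by -1.71 (adjusted p = 5.67e-06) and Sat1, the acetyltransferase that starts polyamine breakdown, by -0.98 (adjusted p = 6.37e-05). These 4 genes were called lower in TLR4-K730R and TLR4-K810R too, and also in every genotype with median-of-ratios scaling.

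Among 8 tested ornithine, urea and proline genes 0 were called higher and 3, 5 and 4 lower (2, 5 and 4 with median-of-ratios scaling), against 23.9%, 26.5% and 19.7% of all genes called lower. Glul, glutamine synthetase, fell from 88.8 ± 3.54 to 33.7 ± 7.26 FPKM (SD, n = 3) in TLR4-WT (log2 difference -1.39, limma adjusted p = 5.86e-07), and Gamt, the second enzyme of creatine synthesis, from 5.92 ± 1.01 to 1.18 ± 0.323 FPKM (-1.66, adjusted p = 4.73e-06). Prodh, proline dehydrogenase, was called lower in TLR4-WT at low levels, from 0.749 to 0.0202 FPKM (-0.75, adjusted p = 0.00912). This call was lost with median-of-ratios scaling. Glul and Gamt were called lower in all 3 genotypes under both scalings.

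Of 8 tested partners of nitric oxide synthase and handlers of nitric oxide, Calm2, a calmodulin gene, fell in TLR4-WT from 235 ± 84.0 to 76.4 ± 25.9 FPKM (SD, n = 3; log2 difference -1.61, limma adjusted p = 0.00286), and this call was lost with median-of-ratios scaling. Ddah2, which degrades methylated arginines that inhibit nitric oxide synthases, was the only one of the 36 genes called between genotypes, at 5.13 ± 1.997 FPKM in mock-treated TLR4-K810R and 1.79 ± 0.0820 FPKM in TLR4-WT (log2 difference 1.09, adjusted p = 0.00542), against 0.927% of all genes called higher. The mesothelial, fibroblast and intestinal marker sums given above were higher in the same libraries, and their part was not tested. In cationic amino acid transport 1 of 4 tested genes was called, higher in every genotype, against 10.4%, 9.32% and 9.08% of all genes: Slc3a2, the shared heavy chain of several amino acid exchangers, rose from 154 ± 23.1 to 411 ± 113 FPKM in TLR4-WT (1.39, adjusted p = 3.13e-05), from 167 ± 27.3 to 557 ± 142 FPKM in TLR4-K730R (1.71, adjusted p = 3.24e-06) and from 167 ± 4.68 to 582 ± 32.5 FPKM in TLR4-K810R (1.79, adjusted p = 2.49e-06).

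**Figure D5:**
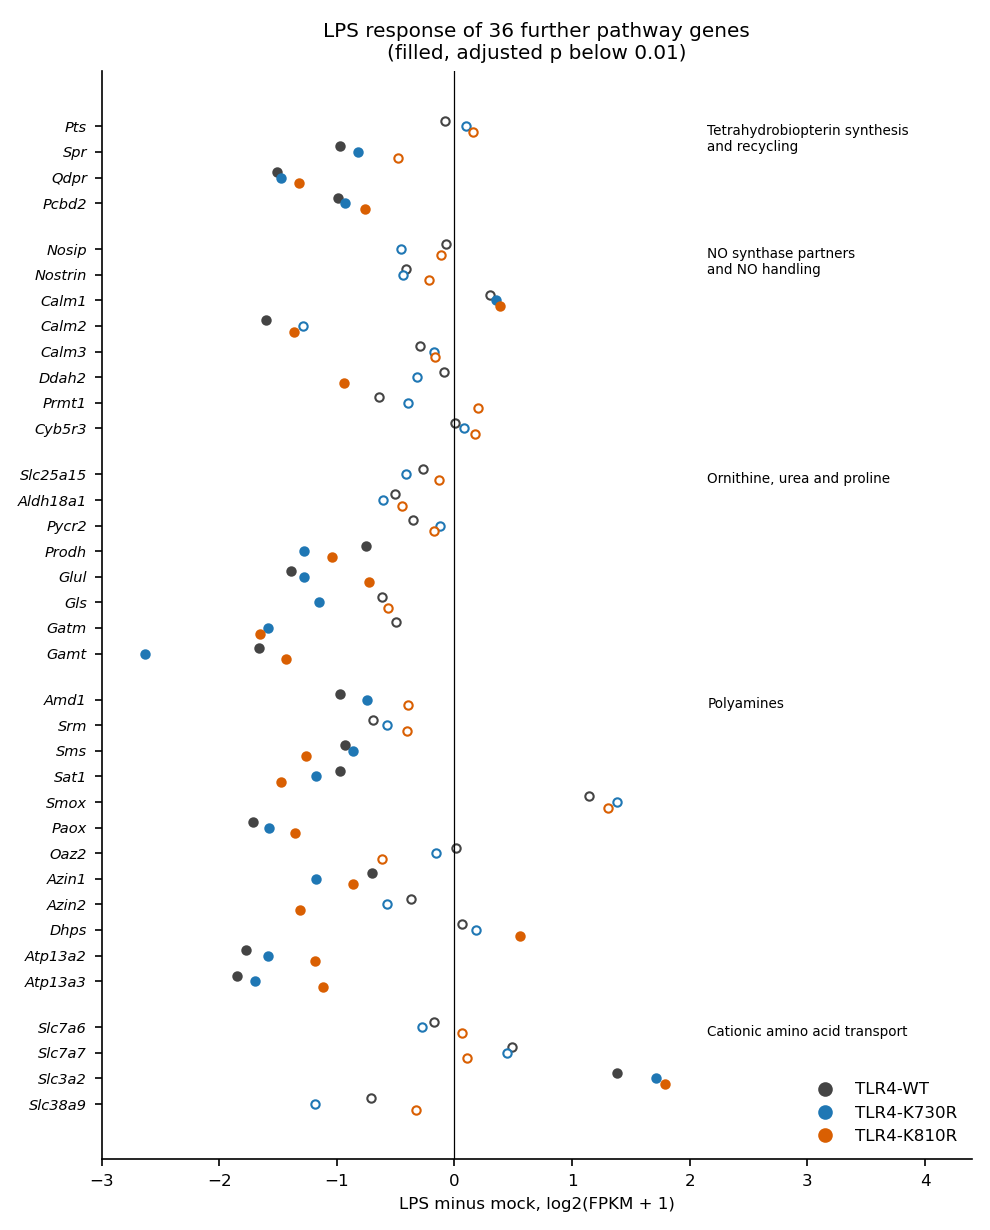
LPS minus mock difference on the log2(FPKM + 1) scale (x axis) of the 36 tested pathway genes beside the 7, grouped by role, with 1 point per genotype and filled points for an adjusted p below 0.01 in limma. Qdpr, Atp13a2, Atp13a3, Paox, Glul and Gamt lie below 0 with filled points in every genotype, and Slc3a2 lies above 0.

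Genes whose pattern was most like that of Nos2 were picked by Pearson correlation of log2(FPKM + 1), as a description over libraries that share the LPS contrast and the same groups. Over 18 libraries these were Hdc, histidine decarboxylase (r = 0.994), Cxcl10, a chemokine (0.994), Clic5, a chloride channel family member (0.990), Batf2, a transcription factor (0.990), and Itga9, an integrin chain (0.989). Over the 9 LPS libraries they were Clic5 (0.985), Pla2g16, a phospholipase (0.983), Itga9 (0.981), Ifi208, an interferon-inducible gene (0.980), and Aftph, a trafficking adaptor (0.979). Cxcl10 was at 865, 907 and 450.4 FPKM in LPS-treated TLR4-WT, 266, 233 and 913 FPKM in TLR4-K730R cells and 192, 192 and 208 FPKM in TLR4-K810R. Replicate 3 of TLR4-WT and of TLR4-K730R stood apart from their groups in the same direction as for Nos2, in a gene picked for its correlation with Nos2. Ifi208 was at 28.1, 34.8 and 10.7 FPKM, 10.98, 8.18 and 33.4 FPKM, and 4.5, 4.91 and 5.33 FPKM.

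Over 18 libraries r with Nos2 was 0.97 for Slc7a2, 0.95 for Gch1, 0.89 for Ass1, -0.93 for Asl, 0.45 for Odc1 and -0.08 for Slc7a1. Over the 9 LPS libraries it was 0.52 for Slc7a2, 0.48 for Odc1, 0.22 for Ass1, -0.03 for Gch1, -0.59 for Asl and -0.66 for Slc7a1. These values describe 9 libraries of 3 groups, of which 2 stand apart, and carry no test.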

How the data were processed

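The authors deposited FPKM values per transcript event (first exons, last exons, skipped exons and others) for each of 18 libraries of mouse peritoneal macrophage RNA, 80071 to 90401 entries per library, per the file headers. RNA was column-purified and sequenced on an Illumina platform; aligner and counter are not given in the sources used here. The submitters' processing notes name hg18, a human build, while the coordinates match mouse GRCm38: 14126 of 14139 Ensembl numbers were in GENCODE M21, and 92.3% of entries overlapped the named gene.

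Events on the gene's strand and span were kept (6.24% of first-exon and last-exon FPKM dropped), and the larger of the summed first-exon and last-exon FPKM gave the gene's value. Genes with at least 1 FPKM in 3 libraries were tested with limma 3.58.1 (R 4.3.3) on log2(FPKM + 1), all 6 groups in one fit with an intensity trend, Benjamini-Hochberg adjustment over 9707 genes per comparison and a threshold of 0.01. Gene values came from Python 3.11.15 with pandas 2.3.3. The test was checked on simulated data. Depth is unknown.

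The 7 genes, the pathway and marker lists and the tests were chosen with earlier results of these data known. Named besides the 7 and Tlr4 were up to 4 called genes per pathway role with the largest difference in LPS-treated against mock-treated TLR4-WT, pathway genes called between genotypes, and the 5 genes most correlated with Nos2. Alternatives changed pseudocount, filter, scaling, trend, weights, replicate block, exon end, libraries and threshold. Some items of the list are not reported here.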

Additional observations from a re-analysis of the deposited data

How the results depend on the processing

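For LPS against mock 3 to 6 of the 7 genes were called in TLR4-WT and 3 to 5 in each mutant under the alternatives run (5 in the report), with the 3 from first-exon sums. Between genotypes the counts moved more. For TLR4-K810R against TLR4-WT, mock, 1 became 3 with median-of-ratios scaling, library weights or a threshold of 0.05, 2 with last-exon sums, 0 when only the compared groups were fitted, and 0 to 1 when libraries were left out. For TLR4-K810R against TLR4-K730R, mock, 1 became 0 with only the compared groups and 0 to 1 with libraries left out. For TLR4-K730R against TLR4-WT, mock or LPS, and for the difference of their LPS responses, 0 became at most 1 (range 0 to 1) with libraries left out, which for the mock comparison was the fit without replicate 2 of TLR4-K730R. For TLR4-K810R against TLR4-WT, LPS, and for the difference of their LPS responses, 0 became 1 with library weights, with both replicates 3 left out and at 0.05, and 0 to 1 with libraries left out. The cause was not tested.

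Directions turned only in differences that were not called. Slc7a1 after LPS ranged from -0.061 to 0.446 in TLR4-WT and from -0.0689 to 0.193 in TLR4-K810R with single libraries left out, was -0.061 in TLR4-WT without both replicates 3, 0.032 in TLR4-K730R with median-of-ratios scaling, and -0.077 and -0.14 in TLR4-K810R without replicate 1 or 2 of all groups. Odc1 in TLR4-K810R was 0.030 without replicate 1 of all groups. With first-exon sums, where Gch1 is listed in 6 libraries, Gch1 was 0 and 0.57 in mock-treated TLR4-K810R and TLR4-K730R against TLR4-WT, with response differences of -1.23 and -0.56. The Nos2 response difference between the mutants was 0.37 with a pseudocount of 0.1 and 0.12 without replicate 3 of all groups.

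Over all tested genes, LPS-treated TLR4-K810R against TLR4-WT gave 13 calls in the report and 366 with library weights. It gave 8 with no filter or first-exon sums and 0 with only the compared groups. For mock the calls were 153 in the report, 27 with only the compared groups and at most 218 under any alternative. For TLR4-K810R against TLR4-K730R they were 8 (1 to 20) with mock and 6 (0 to 36) with LPS, for TLR4-K730R against TLR4-WT 26 (11 to 61) with mock and 0 (0 to 1) with LPS, and for the response differences 4 (2 to 6), 12 (6 to 37) and 1 (0 to 3). Replicate numbers did not pair the libraries: of 45 same-numbered pairs 0 had a correlation of deviations over 0.1 (-0.32 to 0.0993), and 0 libraries correlated best with their own number. With a replicate block the Nos2 difference of TLR4-K810R from TLR4-WT with LPS was -2.20 (adjusted p = 0.0406), and the block moved all-gene calls in that comparison from 13 to 3. Without counts, what depth limits could not be computed.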
